A study of Mus musculus with 6 samples.

Results

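The nuclear factor I (NFI) family is a set of 4 genes in the mouse, Nfia, Nfib, Nfic and Nfix, and its members were taken from the count tables by symbol, 4 of 24421 listed genes. All 4 passed the filter on low counts, which kept 15906 genes. RNA was sequenced from 6 cultures of oligodendrocyte progenitor cells (OPCs) of the mouse, which divide and give rise to myelin-forming cells. They came from the cortex of C57BL/6J pups at postnatal day 4, were passed over a GalC antibody dish, caught on O4 antibody, and grown in a medium with PDGF-AA and bFGF. That is what the sample labels describe, whereas the design text of the series speaks of brain tissue. The 3 control libraries came from Prrc2bf/f mice, with both Prrc2b alleles floxed and no Cre. The 3 knockout libraries came from Prrc2bf/f; Olig2-Cre mice, with the same floxed alleles and a Cre that acts in cells with Olig2 expression, which need not be limited to OPCs. No library carried Olig2-Cre alone, so an effect of the Cre or its allele and one of Prrc2b loss cannot be told apart. Whether the replicates of a group are separate animals, and how many animals a library holds, is not given by the labels, so errors and p-values cover only how these libraries vary, which may be technical.

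NFI proteins are transcription factors that bind DNA as dimers, through an N-terminal domain that is much alike in all members, at a palindrome with the arms TTGGC and GCCAA. In the developing nervous system Nfia and Nfib come on when neural stem cells start to make glia, and Nfia is needed for that step. Nfia is known to favour astrocytes over oligodendrocytes and to oppose myelin gene expression in the oligodendrocyte lineage. Nfix acts in neural stem cells of the forebrain, and Nfic is best known for its part in tooth root formation.

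The members share coding sequence, which bears on whether reads can be given to the right gene. The largest coding exon of each member is exon 2, with 532 coding bases that encode most of the DNA-binding domain. In GENCODE M21 (GRCm38) it lies at chr4:97783082-97783613 for Nfia, chr4:82498238-82498769 for Nfib, chr10:81420267-81420798 for Nfic and chr8:84771784-84772315 for Nfix. The same 120 bases of that exon (38 to 157) are shown for each member, on the coding strand. They hold the longest run shared by the coding sequences of any pair. Capitals mark bases that differ from Nfix.
Nfix, chr8:84772159-84772278, minus strand: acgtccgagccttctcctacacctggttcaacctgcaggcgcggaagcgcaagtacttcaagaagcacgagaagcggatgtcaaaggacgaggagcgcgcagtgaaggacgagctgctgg
Nfic, chr10:81420642-81420761, minus strand: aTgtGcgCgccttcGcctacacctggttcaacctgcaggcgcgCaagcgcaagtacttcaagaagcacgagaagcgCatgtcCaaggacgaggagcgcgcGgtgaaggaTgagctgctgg
Nfia, chr4:97783119-97783238, plus strand: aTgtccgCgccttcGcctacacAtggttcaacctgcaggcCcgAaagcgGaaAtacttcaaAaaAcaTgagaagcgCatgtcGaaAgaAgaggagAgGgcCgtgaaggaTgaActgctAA
Nfib, chr4:82498613-82498732, minus strand: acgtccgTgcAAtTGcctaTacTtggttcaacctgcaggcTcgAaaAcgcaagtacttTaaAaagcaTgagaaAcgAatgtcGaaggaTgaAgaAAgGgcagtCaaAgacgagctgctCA

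In this stretch Nfic differs from Nfix at 9 bases, Nfia at 22 and Nfib at 25. Over the whole exon Nfic and Nfix are 82.0% identical and the other pairs 75.8% to 78.6%. A window of 150 bases, the length of 1 read, holds at least 11 differences between Nfic and Nfix and at least 23 between any other pair. No run of 50 bases is shared between annotated transcripts of any members (0 in every pair). Between the coding sequences of the longest coding transcripts, the longest identical run is 32 bases, in Nfic and Nfix. Runs shorter than 50 bases outside those coding sequences were not searched for.

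The level of the targeted gene gave a limited check of the labels. Prrc2b, which encodes an RNA-binding protein, stood at 933, 1110 and 926 CPM (counts scaled to library size, TMM-normalised) in control libraries numbered 1, 2 and 3. In knockout libraries it stood at 649, 824 and 758 CPM, below every control. Means were 990 ± 105 and 744 ± 88.3 CPM (SD, n = 3). Prrc2b thus kept most of its reads counted over the whole gene, in which intact transcripts were not told apart from others. It fell by a log2 fold change of -0.41 (edgeR, SE 0.06, adjusted p = 0.00688) in a model with the replicate number as a block, which compares same-numbered libraries, and -0.41 (SE 0.13, edgeR adjusted p = 1.00) without it. A fall of this size was not particular to Prrc2b, since the neuronal marker Dlx2 was at -0.44 (SE 0.04) with the block. The libraries held from 26015604 to 28114968 counts in genes. All 12 OPC markers listed were tested and 0 were called with the block, beside 3.8% of all tested genes. Without the block edgeR called 0 genes in all, so nothing is read from this count. Of these markers, Olig2 was called in 2 of 12 settings with the block, and Sox10 was called without the pair numbered 1. The summed level of the OPC markers ranged from 2546 to 4421 CPM (control) and from 2510 to 5199 CPM (knockout). Ptprz1 was the largest part of that sum, at 1370 to 2320 CPM (control) and 1510 to 2720 CPM (knockout), so the sum says little of the other markers.

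Nfix was the member whose groups did not overlap. Nfia stood higher, and Nfib and Nfic lower, in each knockout library than in the control library of its number, but for these 3 members the groups overlapped. Members were chosen with earlier results of this comparison known, Nfix's among them, so their differences are given without a p-value and support nothing. By the blocked edgeR model 1 of 4 members, Nfix, was called lower at an adjusted p under 0.05, and 3.8% of all tested genes were called in either direction, 2.23% lower and 1.57% higher. The excess of lower calls turned with library totals (271 higher, 231 lower), upper quartile scaling (289 and 247), GC correction (213 and 181) and without the pair numbered 1 (276 and 168). Nothing is read from the count of members. Without the block edgeR called 0 members and 0% of all tested genes, while 1.72% of genes had an unadjusted p under 0.05. For the lists of targets, regulators and cell type markers too, calls come from the block, and without it the edgeR adjusted p of each of their tested genes was 1.00.

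Nfix (ENSMUSG00000001911.16) lies on the minus strand at chr8:84699876-84800344, with 11 exons in its longest coding transcript. Its level was 877, 882 and 860 CPM in control libraries 1, 2 and 3 and 661, 742 and 721 CPM in the knockout libraries of those numbers. Every knockout library lay below every control library, as was so for 3.6% of tested genes. In 2.75% every knockout library lay above every control library, so that 6.34% did not overlap in either direction. The means were 873 ± 11.5 and 708 ± 42.1 CPM (SD, n = 3). The ratio of knockout to control was 0.754, 0.842 and 0.838 in the pairs numbered 1, 2 and 3. The blocked log2 fold change was -0.30 (SE 0.05), 19% below control in the fitted ratio of 0.81. Without the pair numbered 1, which shows the largest difference, it was -0.24 and Nfix was no longer called.

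Among control libraries Nfix hardly varied. Its SD of log2 CPM there was 0.0191, lower than in all but 0.9% of the 10556 tested genes averaging 10 CPM or more, for which the median was 0.189. In knockout libraries the SD was 0.0869, at the 16.3 percentile. With a mean of 791 CPM over all libraries Nfix ranked at the 99.6 percentile of tested genes by CPM.

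Nfib (ENSMUSG00000008575.17) lies at chr4:82290173-82705750 on the minus strand. It stood at 755, 904 and 632 CPM in controls 1, 2 and 3 and 676, 856 and 597 CPM in the knockouts. Both groups spanned a 1.43-fold range, with the libraries numbered 2 highest and those numbered 3 lowest, so that the groups overlapped over most of their range. Means were 763 ± 136 and 710 ± 133 CPM (SD, n = 3), and the ratio within pairs was 0.896, 0.948 and 0.944. The blocked log2 fold change of -0.11 (SE 0.05) was not called.

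Nfia (ENSMUSG00000028565.18) lies at chr4:97772734-98118874 on the plus strand. Its level was 210, 221 and 137 CPM in controls 1, 2 and 3 and 228, 239 and 159 CPM in the knockouts. As with Nfib, the libraries numbered 3 were lowest in both groups. Means were 189 ± 45.3 and 209 ± 43.3 CPM (SD, n = 3), and every knockout library exceeded its partner, at ratios of 1.08, 1.08 and 1.16. The blocked log2 fold change of 0.15 (SE 0.04) was not called with TMM scaling, but was with library totals or upper quartile scaling, where it was 0.17 in both. Those scalings moved the median of all tested genes from 0.003 to 0.029 and 0.028 on the log2 scale.

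Nfic (ENSMUSG00000055053.18) lies at chr10:81396186-81455635 on the minus strand. Levels of 102, 96.3 and 87.7 CPM in controls 1, 2 and 3 and of 96.4, 81.1 and 81.2 CPM in the knockouts overlapped through the knockout library numbered 1. Means were 95.2 ± 7.07 and 86.2 ± 8.82 CPM (SD, n = 3). The ratio within pairs was 0.948, 0.843 and 0.926, and the blocked log2 fold change of -0.14 (SE 0.06) was not called. A knockout library below its partner in all 3 pairs, as for Nfib, Nfic and Nfix, occurred in 20.9% of tested genes, and one above in all 3, as for Nfia, in 19.6%.

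**Figure D1:**
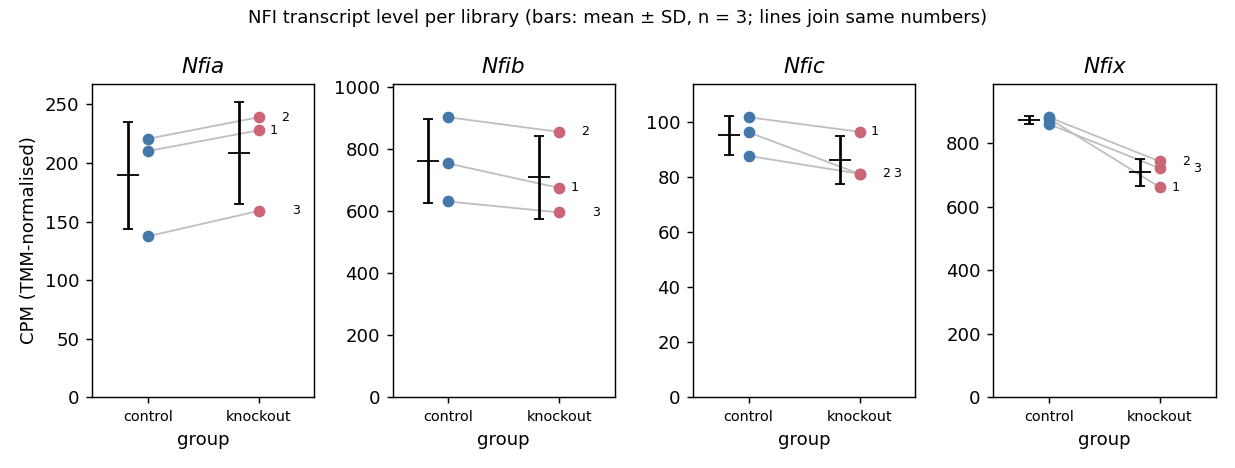
Level of each NFI transcript (y axis, TMM-normalised CPM from 0) in control and knockout libraries (points, with replicate numbers at the right), joined by number, beside the group mean and SD (black, n = 3). The knockout points of Nfix lie between 661 and 742 CPM, below all control points at 860 to 882 CPM, while the points of Nfia, Nfib and Nfic overlap between groups.

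The members can be compared with each other only per length. Scaled to the longest coding transcript (5476 bases for Nfix, 9116 for Nfib, 9526 for Nfia and 6237 for Nfic), Nfix was the most abundant member, with 159 ± 2.1 (control) and 129 ± 7.68 (knockout) CPM per kb (SD, n = 3). Nfib followed at 83.7 ± 14.9 and 77.8 ± 14.6 CPM per kb, and did not overlap Nfix in either group. Nfia stood at 19.9 ± 4.75 and 21.9 ± 4.54 and Nfic at 15.3 ± 1.13 and 13.8 ± 1.41 CPM per kb. In control libraries the lowest Nfia value of 14.4 lay within the Nfic range of 14.1 to 16.3 CPM per kb, so these neighbours in the order did not differ beyond their spread, whereas in knockout libraries Nfia (16.7 to 25.1) lay above Nfic (13 to 15.5). The order of the means was the same when all annotated exons of a gene were used as its length, although in control library 3 Nfia (12.6) then lay below Nfic (13.2).

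The summed family level was 278 ± 22.1 (control) and 243 ± 21.7 (knockout) CPM per kb (SD, n = 3), and the groups overlapped (255 to 299 and 227 to 268). Nfix made up 57.5 ± 3.89% of that sum in control and 53.4 ± 4.03% in knockout libraries. Nfia made up 7.08 ± 1.23% and 8.99 ± 1.46%. Both shares overlapped between groups, at 53.9% to 61.6% against 50.7% to 58% for Nfix. Transcript use within a gene was not measured, so these shares rest on the length chosen. With all annotated exons the Nfix share was 59.1% and 54.9%.

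**Figure D2:**
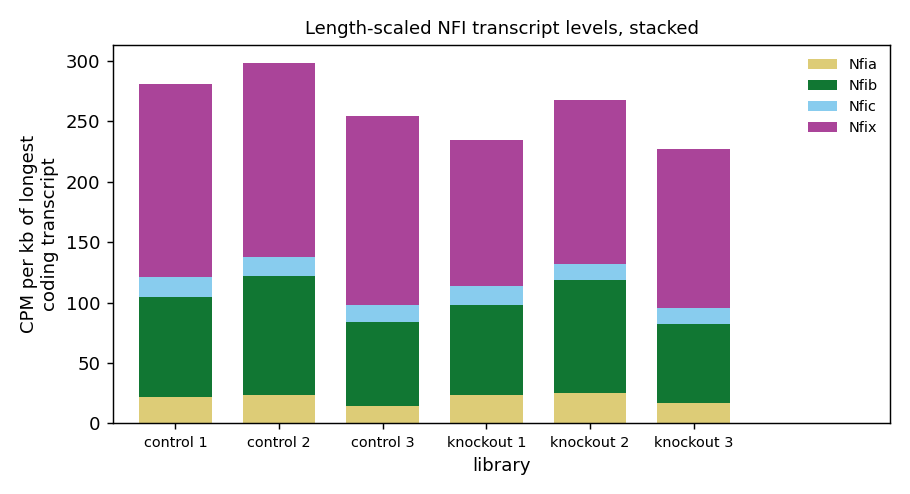
Stacked levels of the NFI transcripts in each library (y axis, TMM-normalised CPM per kb of the longest coding transcript, from 0). Nfix is the largest part of each bar, at 157 to 161 CPM per kb in control and 121 to 136 in knockout libraries, followed by Nfib.

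The profiles of the members across the 6 libraries were compared. The profile of a gene was its log2 CPM less its own mean, and likeness was the root mean square difference between profiles. By this measure Nfic and Nfix were nearest to each other (0.163), then Nfia and Nfib (0.194), and Nfia and Nfix were farthest apart (0.365). The measure is not scaled to how much a gene varies, so genes that vary little can come out near each other whatever their pattern. Profiles spanned 0.325 for Nfic and 0.415 for Nfix on the log2 scale, against 0.598 for Nfib and 0.798 for Nfia. The distances between members are not small, since 1965 of the other genes compared were nearer to Nfix than Nfic was. The nearest of 10266 genes to Nfix were Rplp2, a ribosomal stalk protein gene (0.041), Zfp954 (0.0477) and Thop1 (0.0479), which encodes a cytosolic peptidase. For Nfia they were Ttll4 (0.0354), Nsl1 (0.0533) and Pds5a (0.0604). For Nfib they were Zcchc8 (0.0171), Dctn5 (0.0173) and Mllt4 (0.0175), and for Nfic Map7d1 (0.0269), Wee1 (0.0306) and Clns1a (0.0311). All values of a profile come from the same 6 libraries, so a shared library difference counts as likeness.

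Base composition split the family by pairs. The GC content of the longest coding transcript was 57.1% for Nfix and 57.4% for Nfic, and 42.7% for Nfia and 43.3% for Nfib, with a median of 49.0% over 23376 listed genes with a transcript. Changes followed GC content over all genes. The median blocked log2 fold change was 0.02 in the lowest of 20 GC bins and -0.16 in the highest, and -0.04 in the bin that holds Nfic and Nfix. After a correction for GC content Nfix changed by -0.27 (SE 0.05) and was still called, and Nfic was at -0.11 (SE 0.06), Nfia at 0.12 (SE 0.04) and Nfib at -0.13 (SE 0.05).

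GGACT, the core of the sequence at which N6-methyladenosine (m6A) is most often placed on RNA, was counted because the paralog of Prrc2b, Prrc2a, is known as an m6A-binding protein. It occurred 9 times in the longest coding transcript of Nfix, 11 in Nfic, 12 in Nfib and 7 in Nfia. Per kb this was 1.64, 1.76, 1.32 and 0.735, against a median of 0.967 over listed genes. The count describes letters and does not show that a site is methylated.

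RefSeq promoter windows (GRCm38.p6, 250 bases before to 50 after a start) matched 3 of 4 members, with 4 windows for Nfix and 1 each for Nfia and Nfic. All 4 Nfix windows and the Nfic window lie within the GENCODE spans of those genes. The 5' ends of those spans (chr8:84800344 for Nfix and chr10:81455635 for Nfic) were therefore not searched. The Nfia window (chr4:97581693-97581992) lies upstream of the GENCODE span of Nfia given above and within that of E130114P18Rik. The full palindrome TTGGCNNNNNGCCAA was in 0 of these windows and in 12 of 32851 windows in all. The half-site TTGGC, searched on both strands, was in 3 of the 4 Nfix windows, in neither of the others, and in 46.7% of all windows. The Nfix window at chr8:84772826-84773125 (minus strand, within the gene) is shown because it alone among the windows of the family holds 2 half-sites. They lie on either side of the start, on opposite strands and in the reverse order of the arms of the palindrome, and capitals mark them.
Nfix window: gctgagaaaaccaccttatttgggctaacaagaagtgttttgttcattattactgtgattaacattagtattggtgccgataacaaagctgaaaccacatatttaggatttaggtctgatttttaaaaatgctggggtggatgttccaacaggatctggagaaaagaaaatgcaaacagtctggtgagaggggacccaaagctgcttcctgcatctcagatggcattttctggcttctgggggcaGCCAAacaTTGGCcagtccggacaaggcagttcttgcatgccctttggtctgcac

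Calls among genes with the half-site in a promoter window were counted beside those of all genes with a window. Of 11942 tested genes with a window, 186 were called higher and 268 lower with the block, 3.8% in all, with a median log2 fold change of 0.002. Of 6542 with TTGGC, 98 were higher and 148 lower (3.76%, median 0.006). Of 1669 with the longer TTGGCA, 38 were higher and 40 lower (4.67%, median 0.017).

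Genes reported elsewhere as targets of NFI proteins are described by list. A gene passed if it was called with the block, as 3.8% of all tested genes were. The lists were written with earlier results of these data known. Among 7 glial genes that NFI proteins are reported to activate, 1 rose, 0 fell and 6 did not pass, with a median blocked log2 fold change of 0.18, beside 250 rises and 354 falls among all 15906 tested genes and a median of 0.00. Gfap, the intermediate filament gene of astrocytes and the best known NFI target, had 169, 64 and 89 CPM in controls 1, 2 and 3 and 217, 99.6 and 142 CPM in the knockouts. It was higher in all 3 pairs although the groups overlapped, and it rose by a log2 value of 0.55 (edgeR, SE 0.06, adjusted p = 0.00362). The glutamate transporter gene Slc1a3 was at 0.19 (SE 0.05, edgeR adjusted p = 0.0551), and was called in 5 of 12 settings with the block: library totals, upper quartile scaling, no filter, DESeq2 and limma-voom. Zcchc24, Mmd2 and Apcdd1, which Nfia and Sox9 are reported to activate together, lay between 0.12 and 0.18. Fabp7, a fatty acid binding protein gene of radial glia, was at -0.02 (SE 0.05), and its means were 637 ± 256 CPM (control) and 635 ± 284 CPM (knockout; SD, n = 3).

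Of 7 genes that NFI proteins are reported to lower, 0 rose, 0 fell and 7 did not pass, beside 3.8% of all tested genes called with the block. The median was 0.23 with the block, which is the value of the variable gene Mbp, and 0.05 without the block. Hes1, a Notch effector that keeps progenitors undifferentiated, was the nearest to the threshold, with 35.2, 25.9 and 26.4 CPM in controls 1, 2 and 3 and 38.3, 33.1 and 37 CPM in the knockouts. The log2 difference was 0.32 (edgeR, SE 0.09, adjusted p = 0.0957). Ezh2, the histone methyltransferase of Polycomb complex PRC2, was at -0.06 (SE 0.05). The myelin gene Mbp was at 0.23 (SE 0.33), with control values from 87.7 to 419 CPM, highest in control library 2, and it was called by edgeR without the pair numbered 2.

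Of 4 tested genes that NFI proteins are reported to activate in cerebellar granule neurons, 2 fell, 0 rose and 2 did not pass (2.23% of all tested genes fell), and Gabra6, of the same list, had at most 2 counts in a library. Efnb1, which encodes the guidance ligand ephrin-B1, went from 117, 124 and 97.5 to 92.6, 98.6 and 76 CPM. It was lower in all 3 pairs (log2 fold change -0.34, SE 0.05, edgeR adjusted p = 0.00867). The adhesion molecule gene Cntn2 changed by -0.38 (SE 0.07, edgeR adjusted p = 0.0246). The libraries numbered 3 stood far above the others for Cntn2, with 506 CPM (control) and 419 CPM (knockout), and without that pair it was not called (edgeR adjusted p = 0.0695), nor was it with DESeq2 (0.0934). The cadherin gene Cdh2 was at -0.01 (SE 0.04) and Wnt7a at -0.15 (SE 0.09).

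Among 14 regulators and partners of NFI proteins at the start of gliogenesis 3 fell, 0 rose and 11 did not pass, with a median of -0.07, beside 2.23% of all tested genes that fell. The 3 were the POU factors Pou3f3 (498 ± 57.3 to 407 ± 57.8 CPM, log2 fold change -0.29, SE 0.04) and Pou3f2 (258 ± 46.4 to 217 ± 38.3 CPM, -0.25, SE 0.03) and the progenitor factor Sox2 (490 ± 118 to 402 ± 120 CPM, -0.30, SE 0.04; SD, n = 3). Their edgeR adjusted p-values were 0.00647, 0.00716 and 0.00893, and each was lower in all 3 pairs and called in all 12 settings with the block. Sox9, which induces Nfia in the spinal cord, was at 0.01 (SE 0.04), with 228 ± 80.7 and 232 ± 93.9 CPM. Olig2, after which the Cre is named, was at -0.50 (SE 0.12, edgeR adjusted p = 0.0533). It was at -0.72 and called without the pair numbered 1 (edgeR adjusted p = 0.000501), at -0.29 without the pair numbered 2 (0.0754), and called with no filter on low counts (0.00366). Notch1 and its partner Rbpj, which act before Nfia, were at -0.02 (SE 0.05) and 0.04 (SE 0.05). Of the other regulators listed, Hes5 was at -0.21 (SE 0.08) and Hes1 at 0.32 (SE 0.09), and neither was called.

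**Figure D3:**
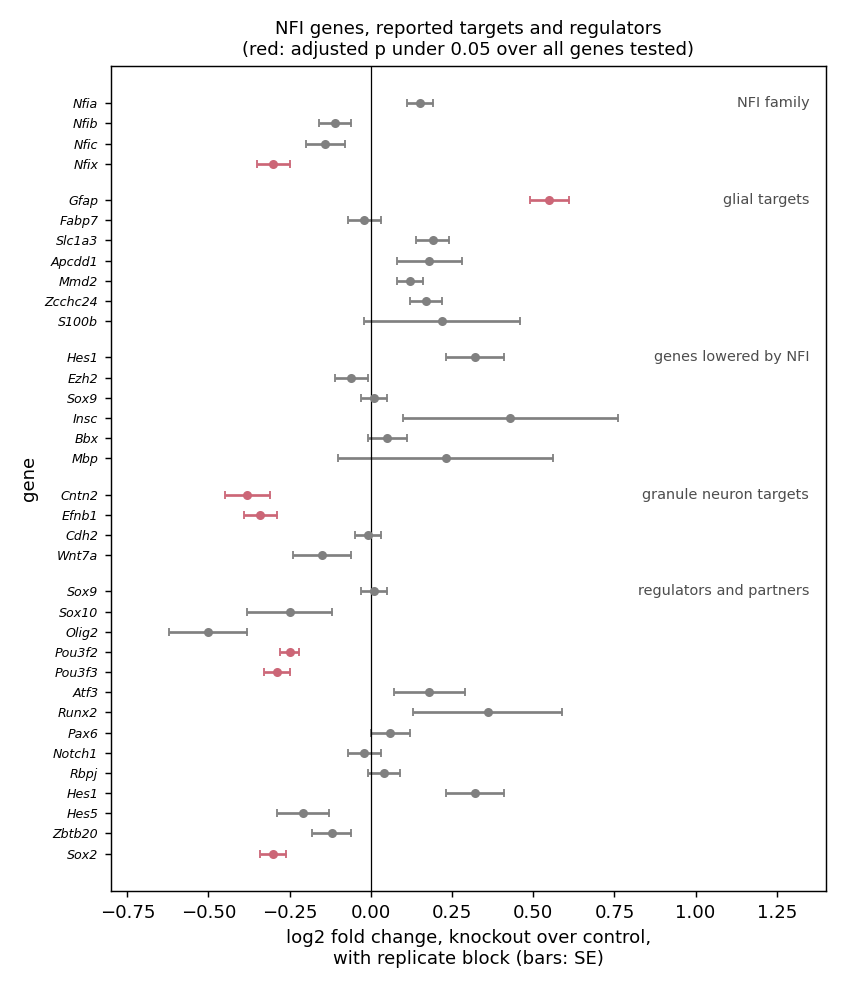
Blocked log2 fold change of knockout over control (x axis, bars SE) for the NFI genes and for reported targets and regulators (rows, grouped by list, 1 gene not shown), with genes at an adjusted p under 0.05 over all genes tested in red. Gfap lies to the right at 0.55, and Efnb1, Cntn2, Pou3f3, Pou3f2, Sox2 and Nfix to the left, between -0.25 and -0.38.

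Genes next to the members were checked because the labels do not give the strand setting of the counting. Lyl1 lies within the span of Nfix on the opposite strand and had 39 to 74 counts per library, against 18155 to 24303 for Nfix. At these low counts Lyl1 was at 0.55 (SE 0.30, not called). Its groups did not overlap, as was so for 6.34% of tested genes in either direction. Trmt1, which ends 67 bases from Nfix, was at -0.12 (SE 0.06) and Dand5, on its other side, at 0.18 (SE 0.21). Neither was called. E130114P18Rik overlaps the 5' part of Nfia on the opposite strand and stood at 31.5 ± 7.53 and 34.5 ± 7.06 CPM (SD, n = 3), with a log2 fold change of 0.14 (SE 0.08, not called). Celf5, beside Nfic, was at -0.30 (SE 0.07, edgeR adjusted p = 0.0393). That call was lost in 6 of 12 settings with the block, among them without the pairs numbered 1 or 3 (edgeR adjusted p = 0.114 and 0.13). Smim24, on the other side of Nfic, was at 0.97 (SE 0.29), with 30 to 146 counts per library. Beside Nfia, Tm2d1 was at -0.17 (SE 0.13) and Gm12695, with 1 to 30 counts per library, at 2.39 (SE 0.64). Zdhhc21, beside Nfib, was at 0.08 (SE 0.06). Smim24, Tm2d1, Gm12695 and Zdhhc21 were not called. Gm5860, beside Nfib, and Mir1191b, within Nfic, had at most 3 counts in a library and were not tested.

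Markers of other cell types moved with these differences in the blocked fit, in which 2.23% of all tested genes fell and 1.57% rose. Without the block 0 markers were called. In bulk RNA fewer cells of a type and less RNA per cell cannot be told apart. Of 14 neuronal markers 5 fell and 0 rose, with sums of 4221 to 5924 CPM (control) and 3681 to 5359 CPM (knockout). Of 12 astrocyte markers, among them Gfap, 4 rose and 0 fell, with sums of 1699 to 3066 and 1957 to 3585 CPM. Of 12 endothelial markers 9 rose, with sums of 22.4 to 109 and 51.4 to 353 CPM. Markers of the ependyma and choroid plexus (6 of 10) and of pericytes and fibroblasts (2 of 10) also rose in part, and 0 of 10 microglial, 0 of 12 OPC and 0 of 10 tested oligodendrocyte markers were called. Opalin, a marker of mature oligodendrocytes, was at 0 in 5 libraries, which allows up to 3 counts in each. The part of these cells in the levels of Nfix, Nfia and the target genes was not tested.

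**Figure D4:**
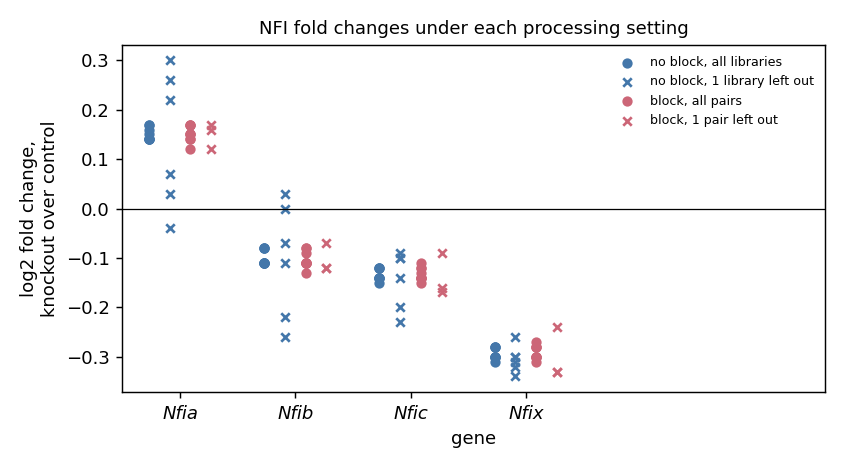
Log2 fold change of knockout over control (y axis) for each NFI gene (x axis) under every processing setting, without the replicate block (blue) or with it (red), with all libraries (circles) or with some left out (crosses). Nfix lies between -0.34 and -0.24 in every setting, while Nfia and Nfib cross 0 when single libraries are left out.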

How the data were processed

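The authors deposited 1 table per library with whole-number counts of reads per gene symbol, not normalised. HISAT2 2.2.1, HTSeq 0.12.4 and DESeq2 1.26.0 are named in the submitters' processing notes, with the build mm10 and no roles. Annotation, parameters and strand setting: not given in the sources used here. Per the labels' protocols, poly(A) libraries were made with dUTP marking and sequenced as pairs of 150 bases. Summary entries that name no gene were left out of library sizes. Pairs in no gene made up 19.6% and 20.8% of read pairs (mean of control and of knockout), ambiguous pairs 1.46% and 1.45%, and pairs with several alignments 3.46% and 3.41%.

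Counts were scaled by TMM, filtered with filterByExpr and tested with edgeR 4.0.16 (quasi-likelihood, two-sided, R 4.3.3) with Benjamini-Hochberg adjustment over 15906 genes and a call at an adjusted p under 0.05. The group was the only term, and beside it a fit with the replicate number as a block is given. Both groups carry the numbers 1, 2 and 3. Libraries of the same number deviated together from their group means in log2 CPM (r = 0.712, 0.682 and 0.654 across genes, which are not independent), and the numbers were therefore used as pairs, although the labels do not say what they mark. Residual degrees of freedom were 4 in the unblocked fit (common biological coefficient of variation 0.315) and 2 in the blocked fit (0.104).

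The members, lists and tests were chosen with earlier results of these data known. Named genes were the members, Prrc2b, called genes of the target and regulator lists and up to 4 uncalled ones a list, the 3 nearest profiles per member among genes of at least 10 CPM, and overlapping or adjacent genes. Other list genes named for their role were chosen after their values were seen. Alternatives were other scalings (DESeq2 size factors, library totals, upper quartile), other filters, DESeq2 1.42.0, limma-voom (limma 3.58.1), a correction for GC content in 20 bins, and libraries left out. The values of 1 gene of the target lists are not reported here, although it stays in the counts and medians of its lists. Gene models and transcripts came from GENCODE M21 (GRCm38) and promoters from RefSeq.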

Additional observations from a re-analysis of the deposited data

Results flagged for a closer look

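Read pairs outside the gene counts took a larger share of each knockout library than of any control for 3 of 5 summary entries. Pairs in no gene made up 20.8% in knockout and 19.6% in control libraries (means). Pairs of low alignment quality made up 3.83% and 3.11%, and unaligned pairs 1.25% and 1.02%. The part of this difference in the levels of the NFI genes was not tested.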

How the results depend on the processing

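With all libraries, Nfix stayed between -0.31 and -0.27 on the log2 scale, Nfic between -0.15 and -0.11, Nfib between -0.13 and -0.08 and Nfia between 0.12 and 0.17, with or without the block. Leaving out single libraries without the block gave -0.34 to -0.26 for Nfix, -0.23 to -0.09 for Nfic, -0.26 to 0.03 for Nfib and -0.04 to 0.3 for Nfia, with Nfib at 0.03 without control library 2 and Nfia at -0.04 without control library 3. Without the block 0 genes were called, except 20 by DESeq2, none of them an NFI gene or a gene of the target and regulator lists, and 0 were called with any 1 library left out.

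With the replicate block 604 genes were called, among them 1 NFI gene (Nfix) and 6 target or regulator genes. The counts were 573, 1 and 6 with DESeq2 size factors, 502, 2 and 7 with library totals, and 536, 2 and 7 with upper quartile scaling, where Nfia was the added member. They were 1034, 1 and 8 with no filter on low counts, 435, 1 and 6 at a mean of at least 5 CPM, 671, 1 and 6 with DESeq2, 712, 1 and 7 with limma-voom and 394, 1 and 6 with GC correction. With 1 pair left out and the block, 444, 521 and 174 genes were called without the pairs numbered 1, 2 and 3, and counts ranged from 0 to 1 for NFI genes and 5 to 9 for target and regulator genes. The cause of these shifts was not tested. Lower calls made up 354 of 604 with TMM scaling, but 231 of 502 with library totals, 247 of 536 with upper quartile scaling, 181 of 394 with GC correction and 168 of 444 without the pair numbered 1. The smallest count of a member in a library was 2149.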
